A study of Mus musculus with 8 samples.

Results

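The H19 and Igf2 locus was described from 2552 CpG cytosine positions, of 33108039 in the deposited table, which fall in 204 of its 3884894 steps of 500 bp. The positions were chosen by place alone: those inside the RefSeq spans of H19 (chr7:142575530-142578146, build mm10) and Igf2 (chr7:142650768-142666816), all positions between the genes, and 10 kb on each outer side. They stand for 1360 CpGs, of which 1192 have both strands listed. The assay was whole-genome bisulfite sequencing, in which a cytosine without a methyl group is converted and read as thymine, and hydroxymethylation counts as methylation. It was done on quiescent muscle stem cells, the resident stem cells of the muscle fibre. The cells came from 4 old (22 months) and 4 young (4 months) male C57BL/6 mice, with 1 animal per library, and were sorted as CD45-, CD31-, Sca1- and VCAM+. The comparison asks how methylation differs with age.

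H19 is a long non-coding RNA and Igf2 encodes a fetal growth factor of the insulin family. The pair is imprinted: in most mouse tissues that express them, H19 is transcribed from the maternal chromosome and Igf2 from the paternal one. A control region just upstream of H19 is methylated on the paternal copy only. On the unmethylated maternal copy it binds the insulator protein CTCF, which keeps enhancers on the far side of H19 away from Igf2. A region methylated on the paternal copy only reads near the middle of the scale when both copies are measured together. These mice are inbred, so the parental copies could not be separated, and levels given here are averages over both.

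The table gives 1 smoothed level per age and position, with a dispersion called phi, the authors' p-value and their FDR. It gives no level per animal and no read count, so the levels are group values without an SD, the depth per position is unknown, and a difference in level cannot be set against the spread between animals except through the authors' p-values. The labels state 115000000 to 200000000 reads per library. Over chromosomes 1 to 19 and X the mean level was 64.6% in old and 64.1% in young cells. Across the locus it was 49.6% in old and 49.3% in young cells, a difference (old minus young) of 0.32 percentage points with equal weight per position and of 0.59 points with equal weight per step. Smoothing pools neighbouring CpGs and both strands of a CpG, so positions are not separate measurements. The end of the gene span with the lower level had, for 8 muscle stem cell marker genes, 3.07% to 12.3% in old and 2.93% to 12.6% in young cells. The same end had 16.2% to 68.6% in old and 18.4% to 67.1% in young cells for 4 blood markers, 40.3% to 72.9% in old and 42.5% to 72.5% in young cells for 3 endothelial markers, and 11.4% to 51.7% in old and 11.6% to 46.4% in young cells for 3 fibro-adipogenic markers. Over 20442 genes the median of this end was 11.4% in old and 11.6% in young cells. For the stem cell markers the median was 9.47% in old and 10.1% in young cells, so a low end is usual for a gene. Blood marker Spi1 and fibro-adipogenic markers Pdgfra and Dcn were low as well, and the other markers of their lists were higher. These levels therefore do not check the identity of the sorted cells. Whether cells of other types contributed to the levels of the locus was not tested.

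H19 and Igf2 are read from the minus strand, so upstream of H19 means higher coordinates, towards Igf2. Distances are counted from the start of H19 at chr7:142578146. The following RefSeq sequences (GRCm38.p6) are those whose levels the results turn on: 3 of the 4 starts of Igf2 and 1 start of Gm33148, a long non-coding RNA gene of unknown function between the genes, each from 250 bases before to 50 after the start, and the hairpin of Mir675, a microRNA cut from H19 RNA. They run 5′ to 3′, and capitals mark the CpGs for which the table lists a level. The Igf2 windows show how far the CpG content of the starts of 1 gene differs.
Igf2 start at chr7:142658804, window chr7:142658755-142659054, minus strand: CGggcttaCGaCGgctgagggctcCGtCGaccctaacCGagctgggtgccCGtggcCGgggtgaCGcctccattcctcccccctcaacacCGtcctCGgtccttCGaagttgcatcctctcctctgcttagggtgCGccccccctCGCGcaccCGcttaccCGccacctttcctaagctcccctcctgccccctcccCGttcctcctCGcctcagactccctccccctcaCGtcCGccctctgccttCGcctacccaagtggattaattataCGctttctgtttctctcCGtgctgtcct
Igf2 start at chr7:142661271, window chr7:142661222-142661521, minus strand: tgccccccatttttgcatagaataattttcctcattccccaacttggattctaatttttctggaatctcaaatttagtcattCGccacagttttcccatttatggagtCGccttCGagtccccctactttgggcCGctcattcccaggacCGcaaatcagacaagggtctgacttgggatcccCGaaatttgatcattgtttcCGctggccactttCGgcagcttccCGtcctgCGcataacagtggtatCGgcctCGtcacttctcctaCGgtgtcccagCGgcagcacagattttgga
Igf2 start at chr7:142666816, window chr7:142666767-142667066, minus strand: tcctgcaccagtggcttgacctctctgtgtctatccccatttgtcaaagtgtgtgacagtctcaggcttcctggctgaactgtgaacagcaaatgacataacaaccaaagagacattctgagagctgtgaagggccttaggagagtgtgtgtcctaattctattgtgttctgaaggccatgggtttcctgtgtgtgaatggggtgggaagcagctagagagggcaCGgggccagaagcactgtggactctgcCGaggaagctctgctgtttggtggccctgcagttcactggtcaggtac
Gm33148 start at chr7:142610819, window chr7:142610569-142610868, plus strand: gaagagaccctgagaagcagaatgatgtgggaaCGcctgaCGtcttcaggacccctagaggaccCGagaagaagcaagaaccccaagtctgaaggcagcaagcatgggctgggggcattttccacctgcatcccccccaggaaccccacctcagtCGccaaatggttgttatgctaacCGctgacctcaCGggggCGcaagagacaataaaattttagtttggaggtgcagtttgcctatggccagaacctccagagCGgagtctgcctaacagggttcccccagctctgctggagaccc
Mir675 hairpin, chr7:142577064-142577147, minus strand: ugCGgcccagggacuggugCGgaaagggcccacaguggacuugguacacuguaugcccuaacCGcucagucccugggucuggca

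The control region was taken at its textbook place, 2 to 4 kb upstream of the start of H19 (chr7:142580147-142582146). It held 120 positions on 60 CpGs, 30 CpGs per kb, against 12.2 per kb over the whole locus. Its mean level was 53.8% in old and 52.8% in young cells, a difference of 1.02 points. The level was near the middle of the scale along the whole region: 58 of 60 CpGs in old and 57 of 60 in young cells lay between 40% and 60%. In old cells the CpGs ranged from 40.9% through a median of 53.8% to 66.0%, and in young cells from 47.1% through a median of 52.3% to 62.9%. The middle of the distribution reached from 52.7% (lower quartile) to 57.4% (upper quartile) in old and from 49.4% to 55.8% in young cells.

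Within the control region the difference changed sign along the sequence. CpGs 2055 to 2180 bp upstream had 53.8% to 54.2% in old and 56.2% to 57.8% in young cells. At 2625 to 2639 bp upstream, 4 neighbouring CpGs had 57.3% in old and 47.8% in young cells, 9.48 points apart, and these had the smallest authors' p of the region (0.0625). The CpG at 3614 bp upstream had 40.9% in old and 49.0% in young cells, and that at 3994 bp had 66.0% in old and 55.4% in young cells. Old cells were thus lower at both the near edge and around 3.6 kb, and higher near 2.6 kb and at the far edge. In all, 68 positions were higher and 52 lower in old cells, and the authors' median p over the region was 0.643. None of the 120 positions had an authors' p under 0.05, where 2.61% of all positions on chromosomes 1 to 19 and X did, or passed their FDR, where 0.236% did. At such shares few of 120 positions would pass, and smoothed neighbours are not separate, so these counts of 0 carry little weight.

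The 5 steps of 500 bp that touch the control region also differed in sign. The first and the last of them reach past its edges, so together they hold 142 positions. The step at chr7:142580501-142581000 had 56.2% in old and 50.7% in young cells over 33 positions. The step at chr7:142581501-142582000 had 44.8% in old and 48.6% in young cells over 22 positions, and the last step, which starts at 142582001, had 60.3% in old and 53.8% in young cells over 24. The remaining pair differed by -1.59 and -0.76 points. Each step was tested by doubling the median p-value that the authors gave its positions (the median test), with Benjamini-Hochberg adjustment over all 1214880 steps of chromosomes 1 to 19 and X with at least 10 positions. The smallest p among the 5 steps was 0.715 before adjustment, and each adjusted p was 1. Their median absolute difference was 3.88 points (range 0.76 to 6.51), against 3.06 points over 141294 steps of the genome at 40% to 60%, where the quartiles were 1.42 and 5.41.

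**Figure D1:**
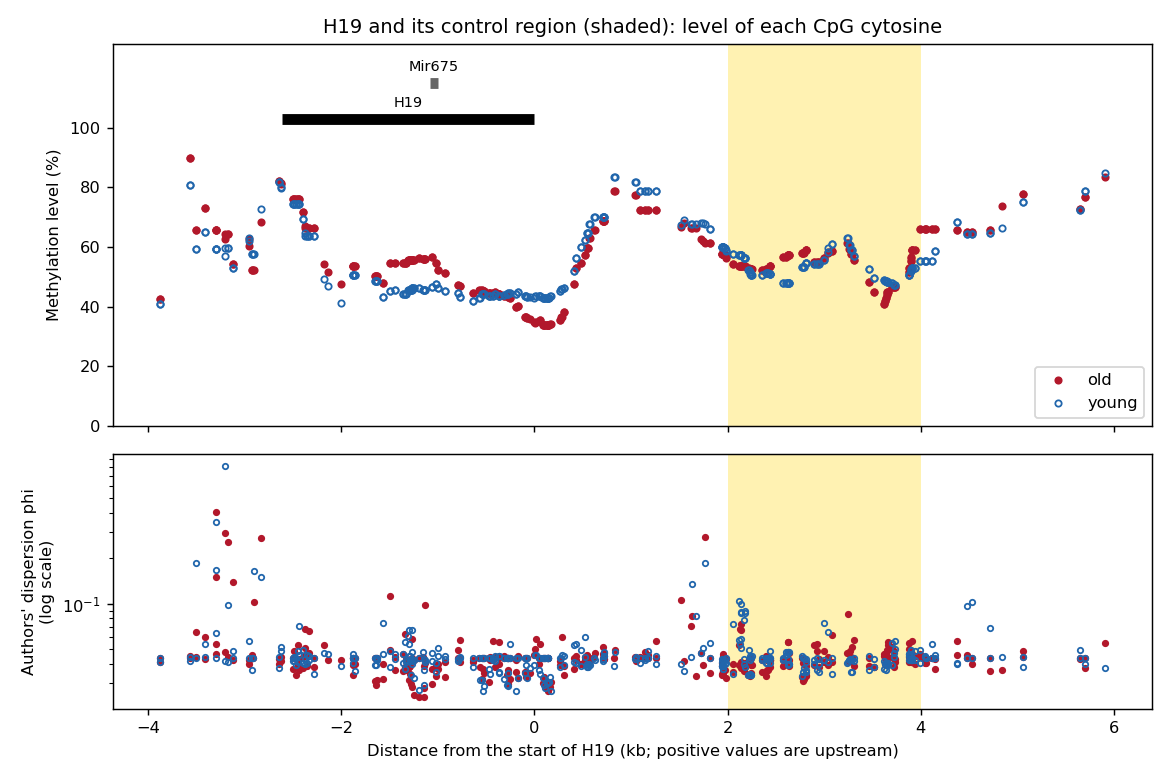
Methylation level in percent (upper panel) and the authors' dispersion phi on a log scale (lower panel) of each CpG cytosine around H19, against distance from the start of H19 in kb, with positive values upstream. Filled red points are old and open blue points are young cells, and the control region 2 to 4 kb upstream is shaded. Both ages lie near the middle of the scale in the shaded region, and the points of old cells lie below those of young cells from the start of H19 to 2 kb upstream.

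The body of H19 was also intermediate and was higher in old than in young cells over most of its length. Its 127 positions on 66 CpGs averaged 52.6% in old and 49.1% in young cells, a difference of 3.54 points, with 105 positions higher and 22 lower in old cells. Positions reached from 34.8% to 76.2% in old and from 41.1% to 74.5% in young cells. All 47 positions in the part of the gene away from the start were higher in old cells, at 60.8% against 56.6% in young cells. In the part near the start, 58 of 80 were higher, and the means were 47.8% in old and 44.7% in young cells. Positions in H19 lie side by side and share smoothed levels, so these counts are not of separate results. The authors' median p over the H19 span was 0.588. The step with the widest gap in the gene, chr7:142576501-142577000, had 54.4% in old and 45.7% in young cells over 36 positions, and the median test on the authors' p-values gave p = 0.195 and an adjusted p of 1. The 6 positions of Mir675, whose hairpin holds 3 CpGs, had 52.1% to 56.5% (mean 54.4%) in old and 46.2% to 47.6% (mean 46.8%) in young cells. These levels are smoothed over the same CpGs, so the ranges are not a spread between animals, and the smallest authors' p was 0.0868. The step at the far end of H19, chr7:142575501-142576000, had 72.8% in old and 70.7% in young cells over 25 positions.

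At and just upstream of the H19 start, the order of the ages turned round. The step that spans the start, chr7:142578001-142578500, had 35.1% in old and 43.7% in young cells over 36 positions, in both ages the lowest level of the 6 steps that touch H19. From 1 to 2000 bp upstream all 86 positions were lower in old cells, with means of 54.0% in old and 59.5% in young cells and differences from -9.77 to -0.44 points. Because these 86 positions lie side by side and share smoothed levels, their common direction is 1 run and not 86 separate results. The smallest of the authors' p-values there was 0.0629, and the median of the authors' p in the step at the start, doubled, gave p = 0.223 before adjustment and 1 after it. The level climbed in both ages to 73.3% in old and 79.5% in young cells in the step around 1.1 kb upstream. It then fell, to 64.3% in old and 67.5% in young cells in the next step, before it reached the control region.

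Igf2 had the lowest mean level of the segments of the locus. Over the span of Igf2, 877 positions on 463 CpGs averaged 21.2% in old and 20.6% in young cells, a difference of 0.58 points, with 587 positions higher and 290 lower in old cells. With equal weight per step the difference was 2.35 points, but sparse steps then count as much as dense ones. For example, chr7:142652501-142653000 differed by 17.75 points over 5 positions, and chr7:142659001-142659500 by 0.17 points over 121. The mean hides sharp steps: positions reached from 2.36% to 79.95% in old and from 1.91% to 81.3% in young cells. A stretch of 475 positions on 251 CpGs (chr7:142657501-142661500) averaged 5.99% in old and 5.87% in young cells. A second low stretch, chr7:142663501-142665000, averaged 7.66% in old and 7.06% in young cells over 133 positions. The bounds of these stretches follow levels under 30% in neighbouring steps and were set after the values were seen.

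The 4 starts of Igf2 differed in level in the same order in both ages. The start at 142658804, whose window printed earlier holds 24 CpGs, all listed, had 2.52% in old and 2.19% in young cells over 33 positions. Of 32851 promoter windows of this length in the RefSeq table, 19.98% hold at least 24 CpGs. The start at 142661271, with 14 CpGs, had 22.7% in old and 21.3% in young cells over 28 positions. The start at 142657496, with 5 of 7 CpGs listed, had 32.8% in old and 29.4% in young cells over 8 positions. The start at 142666816, the outermost, holds 2 CpGs and had 68.3% in old and 64.0% in young cells at 2 positions, both on separate CpGs. At least 2 CpGs were found in 85.9% of promoter windows. All 4 means were higher in old cells, by 0.33 to 4.32 points, and the smallest authors' p at any of the starts was 0.371. The gaps were small, and which start each transcript of these cells uses was not measured.

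Between the end of Igf2 and its low stretches lay an intermediate block. Over chr7:142653501-142656000, 117 positions on 62 CpGs had 40.2% in old and 42.5% in young cells. This block holds Mir483, a microRNA inside an Igf2 intron, whose 3 positions had 36.8% in old and 40.1% in young cells. Among the 23 tested steps that touch Igf2, 15 were higher and 8 lower in old cells, with differences from -7.08 to 10.7 points. The step chr7:142663001-142663500, which lies between the low stretches, had 65.6% in old and 54.9% in young cells over 12 positions, with p = 0.343 by the median test on the authors' p-values and an adjusted p of 1. The step at the end of Igf2, chr7:142650501-142651000, had 67.3% in old and 64.1% in young cells over 14 positions. The antisense gene Igf2os (chr7:142659680-142670356) averaged 34.0% in old and 33.1% in young cells.

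**Figure D2:**
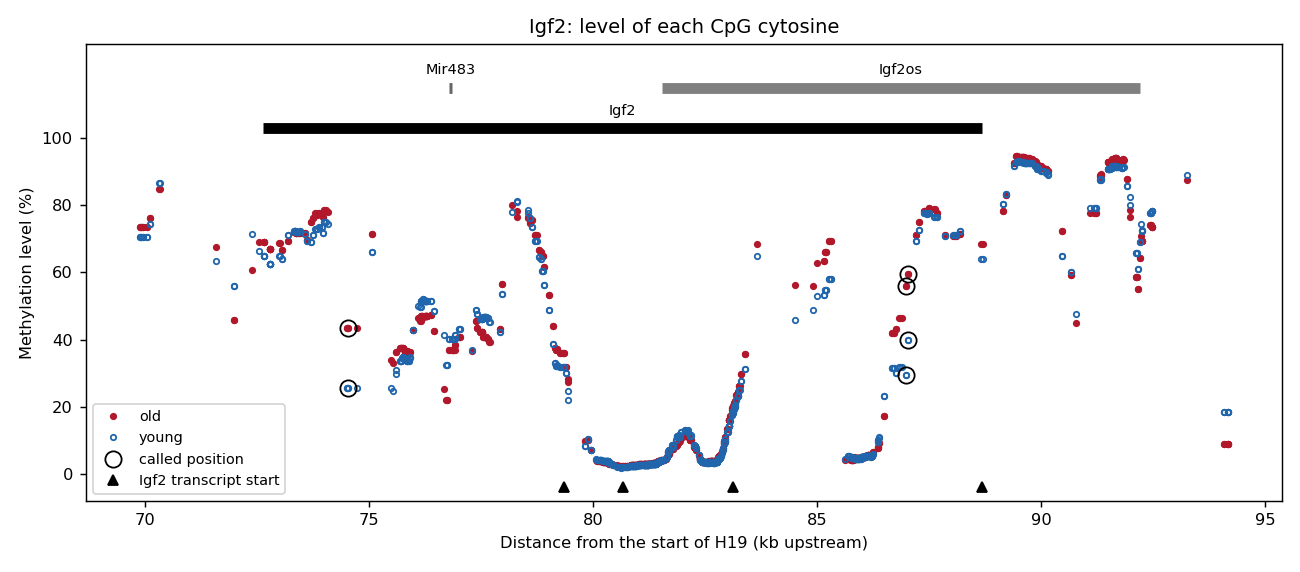
Methylation level in percent of each CpG cytosine around Igf2, against distance upstream of the H19 start in kb, with old cells as filled red and young cells as open blue points. Rings mark positions that pass the authors' FDR and triangles the transcript starts of Igf2. Both ages drop below 30% over the low stretches described in the text. Old cells are higher at the ringed positions, and at 142652675 and 142665138 only young cells lie below 30%.

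The interval between the control region and Igf2 was mostly methylated, with short valleys. Its 931 positions on 510 CpGs averaged 63.7% in old and 63.6% in young cells, and 464 were higher and 467 lower in old cells. CpGs were sparse there, at 7.43 per kb, against 28.8 per kb over Igf2 and 25.2 over H19. When steps were joined into runs by level, 7 runs under 30% were found in this interval. Their mean levels ran from 12.9% to 22.4% in old and from 15.7% to 24.9% in young cells. Of these 7 runs, 1 was higher and 6 were lower in old cells, with differences from -6.77 to 6.34 points. Among the lower ones, chr7:142603001-142603500 differed by only -0.03 points and chr7:142630501-142631500 by -0.75 points. The latter is parted from the low run at chr7:142629501-142630000 by 1 step, which was 2.46 points higher in old cells. The level classes were set after the values were seen, and the direction of these runs was not tested as a group.

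The valley that was higher in old cells lies at a start of Gm33148. Over chr7:142610001-142611500 it had 22.4% in old and 16.0% in young cells across 31 positions. The printed window of the start at 142610819 holds 8 CpGs, all listed on both strands, with 18.8% to 25.9% (mean 21.6%) in old and 10.5% to 18.7% (mean 13.6%) in young cells. The lowest level in old cells (18.77%) and the highest in young cells (18.73%) nearly met. Both ranges run over neighbouring CpGs with shared smoothed levels and are not a spread between animals. The smallest authors' p in the window was 0.0328, and its FDR was 1. The valley with the most positions, chr7:142599501-142601000, had 12.9% in old and 15.7% in young cells over 46 positions. Over the whole span of Gm33148 (chr7:142591659-142620811), 458 positions averaged 61.7% in old and 61.3% in young cells.

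The outer flanks were more methylated than either gene. The 10 kb beyond H19 averaged 70.6% in old and 70.5% in young cells, and the 10 kb beyond Igf2 80.1% in old and 79.9% in young cells. The order of mean levels, from Igf2 through the H19 body and control region to the interval between the genes and the flanks, was the same in both ages, though the H19 body and the control region lay close together.

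**Figure D3:**
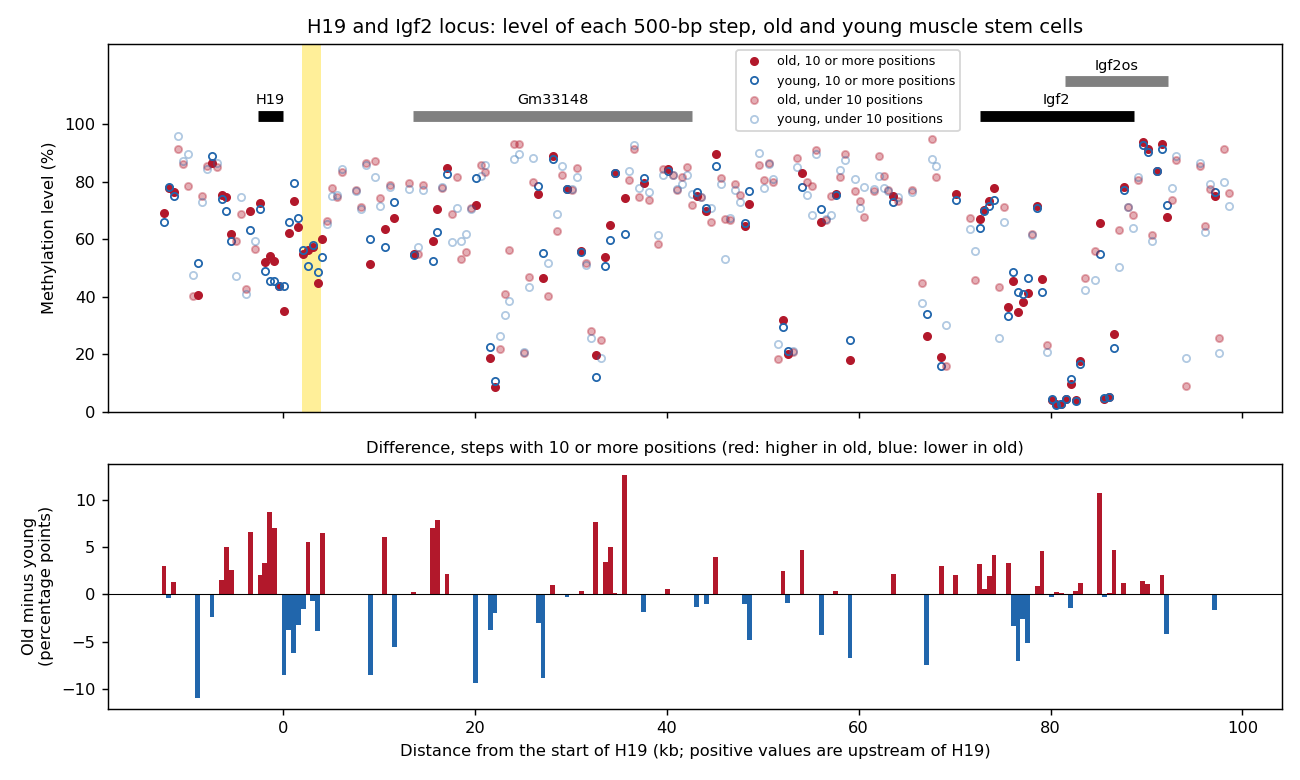
Mean methylation level in percent of each 500-bp step (upper panel) and the difference in percentage points, old minus young, of steps with 10 or more positions (lower panel), against distance from the start of H19 in kb. Filled red points are old and open blue points young cells, paler where a step has under 10 positions, and the control region is shaded. Differences lie between -10.9 and 12.6 points, with neighbouring bars of 1 sign on either side of the start of H19.

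Of the 204 steps, 89 had at least 10 positions and were tested. The 115 steps with fewer positions were not tested, and their differences reached wider, from -14.3 to 17.75 points. None passed an adjusted p of 0.05 by the median test, where 8.23e-05% of all steps tested did (1 of 1214880), and 0 of the 89 had an unadjusted p under 0.05, against 0.137% of all. In old cells 50 of the 89 steps (56.2%) were higher and 39 lower, against 55.6% higher over all tested steps. The median difference was 0.31 points in the locus and 0.37 points over all steps. At least 10 points of difference were found in 3 steps (3.37%), against 2.15% of all tested steps, and at least 8 points in 8 steps (8.99%), against 4.89%. Steps at 40% to 60% made up 21.3% of the locus and 11.6% of all tested steps, and steps of at least 80% made up 13.5% and 37.5%.

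The median absolute difference was 2.67 points over the 89 tested steps and 3.88 points over the 5 that touch the control region. The widest differences in single tested steps lay outside that region. The highest was at chr7:142613501-142614000, inside Gm33148, with 74.4% in old and 61.8% in young cells over 11 positions and p = 0.145 by the median test on the authors' p-values. The lowest was beyond H19, at chr7:142569001-142569500, with 40.8% in old and 51.7% in young cells over 15 positions and p = 0.497, again from the authors' p-values. The mean phi of that step was 0.120 in old and 0.0523 in young cells, but its median over positions was 0.0489 in old and 0.0452 in young cells, and 1 position had a phi of 0.989 in old cells. The other steps among the 3 lowest were chr7:142598001-142598500, with 72.1% in old and 81.5% in young cells over 11 positions, and chr7:142605001-142605500, with 46.5% in old and 55.3% in young cells over 18. Each of these steps had an adjusted p of 1.

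**Figure D4:**
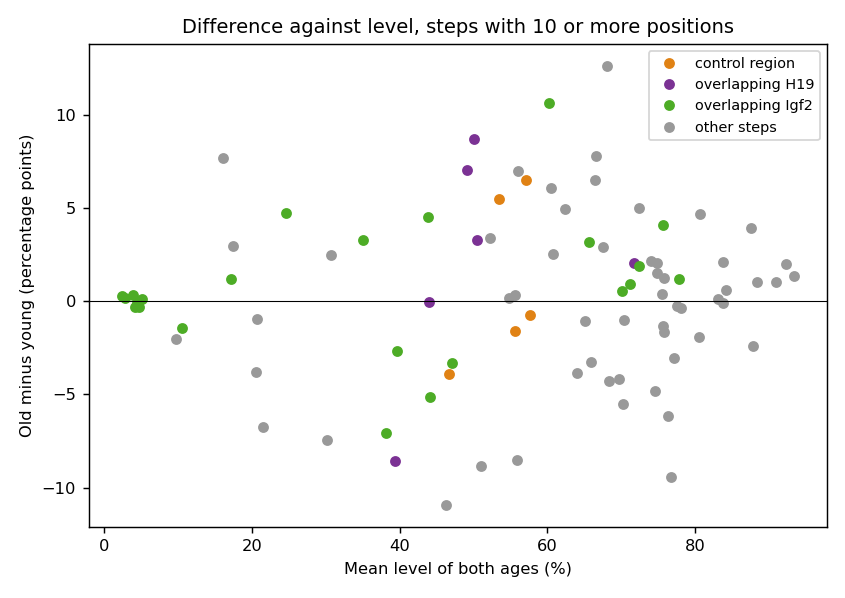
Difference in percentage points, old minus young, of each tested 500-bp step of the locus against its mean level in percent over both ages. Orange points are the 5 steps that touch the control region, purple points steps that overlap H19, green points steps that overlap Igf2 and grey points the rest. The green points under 10% level lie close to 0, and the wider differences lie at intermediate and high levels.

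Single positions did pass the authors' FDR. In the locus 7 of 2552 positions (0.274%) had a deposited FDR under 0.05, against 0.236% of all positions on chromosomes 1 to 19 and X. Of these, 5 were higher in old cells (0.132% of all positions were) and 2 lower (0.105% were). At an unadjusted authors' p under 0.05 the locus held 36 positions (1.41%), against 2.61% of all. None of the 7 lay in H19, its first 2 kb upstream or its control region.

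Within Igf2, 3 of 877 positions passed (0.342%), against 0.236% of all positions. All 3 were higher in old cells, where 0.132% of all positions passed in that direction. With so few positions, their common direction carries little weight. The position 142652675 had 43.5% in old and 25.7% in young cells, with a deposited FDR of 0.0399. The positions 142665138 and 142665183, 45 bp apart at the upstream edge of a low stretch and also inside Igf2os, had 56.0% and 59.7% in old and 29.5% and 39.97% in young cells, with deposited FDRs of 0.014 and 0.0395. These lie in a step of only 9 positions (chr7:142665001-142665500), which averaged 63.3% in old and 50.6% in young cells and was too sparse for the median test. For all 3 positions the other strand of the same CpG had an authors' p between 0.000318 and 0.0382, and did not pass the FDR.

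The remaining 4 positions were scattered. The smallest p of the locus was at 142573971, 4.17 kb beyond the start of H19 on the side of the gene body and outside the gene, with 33.2% in old and 62.3% in young cells and a deposited FDR of 1.71e-06. For the other strand of that CpG the authors gave p = 0.0794. The position 142647430, between the genes, had 17.3% in old and 44.4% in young cells (FDR 0.0364). The position 142645632, 67.5 kb upstream, had 94.9% in old and 88.0% in young cells (FDR 0.0368), and 142676291, beyond Igf2, had 91.4% in old and 79.9% in young cells (FDR 0.00166). In all 7 cases the other strand was listed, and in none did it pass. At 6 of the 7 positions phi of young cells was 0.0438, the most common value of the whole table in that age, and only 1 called position was left when positions at the most common phi of either age were set aside. Positions at the most common phi of either age made up 18.1% of the locus and 24.0% of the table, and the sources used here do not say what this value stands for.

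The dispersion of the control region was set beside that of steps of like level. Averaged over its positions, phi was 0.0437 in old and 0.0458 in young cells. Over the 5 steps that touch it the median phi was 0.0443 in old (range 0.0405 to 0.0479) and 0.0430 in young cells (0.0422 to 0.0506). Genome steps at 40% to 60% had a median phi of 0.0507 in old (quartiles 0.0454 and 0.0625) and 0.0496 in young cells (0.0453 and 0.0597). The medians over the 5 steps thus lay below the lower quartile in both ages, while single steps, and the mean over positions in young cells, lay above it. The genome steps were matched by level only and not by their number of positions. A low phi was not particular to the control region. Its mean over positions was 0.0417 in old and 0.0424 in young cells over the H19 span. From 1 to 2000 bp upstream it was 0.0457 in old and 0.0447 in young cells. Elsewhere in the locus the mean phi passed 0.1 in either age in 5 of the 89 tested steps (5.62%), against 1.62% of all tested steps. Of these 5, 2 lie beyond H19, 2 between the genes and 1 beyond Igf2, and none touches H19, Igf2 or the control region. These means rest on few positions: the median phi over positions passed 0.1 in 1 of the 5 steps. At chr7:142587001-142587500, where the level was 51.6% in old and 60.1% in young cells, the mean phi was 0.0663 in old and 0.158 in young cells, whereas the median was 0.0590 in old and 0.0542 in young cells, the other order. The spread between animals behind these values was not available.

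Genes tied to the locus by place or function were compared at their ends, with the median test over 38819 windows. Each window reaches 1000 bp to either side of an end of the gene span. No window in any list passed an adjusted p of 0.05, where 0.0% of all windows did, and none had an unadjusted p under 0.05, against 14 of all windows. The end of H19 at its start had 45.4% in old and 49.0% in young cells (p = 0.969 by the median test on the authors' p-values). Of 16 neighbours on distal chromosome 7, 10 were higher and 6 lower in old cells at the less methylated end, with a median difference of 0.21 points, against -0.05 points over 20442 genes. Ins2, the insulin gene next to Igf2, had 60.7% in old and 54.7% in young cells, and Th, which encodes tyrosine hydroxylase, 58.8% in old and 53.6% in young cells. Lsp1, a leukocyte actin-binding protein gene, had 41.0% in old and 46.2% in young cells, and the potassium channel gene Kcnq1 had 12.6% in old and 13.4% in young cells.

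The 20 genes of the IGF system, which are ligands, receptors, binding proteins and adaptors of insulin-like growth factor signalling and the proteins that bind Igf2 RNA, were mostly unmethylated at an end. Their median was 7.51% in old and 7.24% in young cells, with 12 genes higher and 8 lower in old cells. Beside Ins2, the binding protein gene Igfbp1 had 65.0% in old and 62.7% in young cells. Igfbp4 had 17.9% in old and 21.3% in young cells, and Igfbp3 16.4% in old and 18.2% in young cells. Of 14 genes whose products write, erase or protect imprints, 5 were higher and 9 lower in old cells, with medians of 8.46% in old and 8.44% in young cells. Ctcfl, a germline relative of the CTCF gene, had 64.8% in old and 61.5% in young cells, and Dnmt3l, a cofactor of germline methylation, 66.7% in old and 65.0% in young cells. The de novo methyltransferase gene Dnmt3a had 63.1% in old and 65.0% in young cells, and the maintenance methyltransferase gene Dnmt1 72.8% in old and 73.4% in young cells. These windows lie at outer edges of the gene spans, and transcript starts inside the spans were not looked at, so the values are not promoter levels.

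Among 13 genes of the imprinted growth network, 9 were higher and 4 lower in old cells, with a median level of 41.1% in old and 40.6% in young cells. Peg3, a paternally expressed zinc finger gene, had 50.9% in old and 46.2% in young cells, and the maternally expressed RNA gene Meg3 51.5% in old and 48.4% in young cells. The proteoglycan gene Dcn had 15.5% in old and 20.3% in young cells, and the zinc finger gene Plagl1 48.8% in old and 50.7% in young cells. The ends most like the H19 control region were sought among 60 listed genes by the distance over 4 values, the level and phi, both on a percent scale, in each age. Nearest was Kcnq1ot1, with 53.1% in old and 50.7% in young cells and a distance of 2.38. Gnas followed, with 50.2% in old and 50.3% in young cells and a distance of 4.44, and Meg3 at 4.98.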

How the data were processed

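Libraries were made from 150 ng of DNA, per the labels' protocols, amplified by 14 PCR cycles and read as paired ends of 101 bp, and the submitters' processing notes name Trim Galore, Bismark, edgeR and the builds mm10 and GRCm38, without versions. The deposited table of the series gives, per the file headers, mu of each age as a fraction (printed here in percent), phi as a score of dispersion that the sources used here do not define, and the authors' p-value and FDR, also a p-value by unit. The sources used here do not name the tool behind the smoothing and the test. The deposited positions count from 0: with 1 added, 95.9% of 59746 cytosines in CpGs of RefSeq promoter windows on chromosome 7 were listed, against 52.6% without. Coordinates are printed from 1.

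Levels were averaged over positions with equal weight. A step of 500 bp, or a gene end, with at least 10 positions was tested by doubling the median of its authors' p-values, which bounds the p of the step however its positions depend on each other, with Benjamini-Hochberg adjustment over all steps of chromosomes 1 to 19 and X and a call at 0.05. The test carries over any error in the deposited p-values, and a change in under 50% of a step's positions can pass unseen. No test over animals was possible. Named were H19, Igf2 and genes overlapping the locus, the 3 steps with the largest difference in each direction, the steps of the control region and gene ends, and per list the 2 genes with the largest difference in each direction. The members and lists were chosen with earlier results of these data known. The position of the control region is a textbook one, and no reference genome was used, so its sequence and its CTCF sites were not analysed here. Alternatives were other step starts and sizes, other minimums, 1 value per CpG, leaving out positions at the most common phi, equal weight per step, flanks of 20 kb and wider windows. Computation used Python 3.11.15, numpy 2.4.6, pandas 2.3.3 and matplotlib 3.10.9.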

Additional observations from a re-analysis of the deposited data

How the results depend on the processing

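No step of the locus was called under the 8 alternatives tried, and no gene end under 2, but the test called only 0 to 2 steps and 0 gene ends over the whole genome in these settings, so this says nothing about stability. The count of positions passing the authors' FDR was less stable: 7 became 1 without positions at the most common phi, 0 when both strands of a CpG had to pass, 11 with flanks of 20 kb and 36 at an unadjusted p under 0.05. With equal weight per step, the mean difference was 2.36 points over H19, against 3.54 with equal weight per position, and 2.35 points over Igf2, against 0.58. Equal weight per step lets steps with few positions count as much as dense ones, and how much of the shift this makes up was not tested. Over the whole locus that weighting gave 0.59 points, against 0.32, and in the flanks -0.10 points, against 0.15. At the control region the difference stayed between 0.84 and 1.02 points under the 4 alternatives. No paired analysis was possible because the table holds no value per animal, and for the same reason no replicate could be left out. Without depth or replicate levels, differences of a few points cannot be separated from the spread between animals.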
